A study of Gallus gallus with 6 samples.

Results

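Lipoprotein genes of the intestinal epithelium were followed in chicken ileum, the most distal segment of the small bowel, with and without a fructooligosaccharide supplement. The 6 genes were chosen by name among the 17623 rows of the deposited table: APOA1, APOA4, APOB and APOC3, which encode apolipoproteins, and MTTP and SAR1B, which encode factors of lipoprotein assembly and export. The genes, and the lists set beside them, were chosen with earlier results of these data known. Shares over all genes are therefore given for description only. Each name was carried by a single row. A filter on low counts left 5 of the 6 in the tests, and APOC3 stayed below it.

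Absorptive cells of the intestine, the enterocytes, package dietary triglyceride and cholesterol into large particles around a single molecule of apolipoprotein B. The microsomal triglyceride transfer protein, encoded by MTTP, loads lipid onto apolipoprotein B as it is made, and the small GTPase SAR1B starts the COPII coat that carries the particle from the endoplasmic reticulum to the Golgi. Apolipoproteins A1, A4 and C3 bind the surface of the particle and exchange with high-density lipoprotein. In birds these intestinal particles are called portomicrons, since they enter the portal blood and not the lymph.

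The birds were Taiping chickens, all labelled as male and 2 months old. Both groups were fed a basal diet based on corn and soybean. FOS birds were also given fructooligosaccharide, short fructose chains that the host does not digest and that bacteria of the gut use, at 1 mL per litre of water. Each group had 3 libraries made from total RNA of the ileum, called control 1 to 3 and FOS 1 to 3. Whether each library came from its own bird is not stated in the labels, and p-values therefore reflect only the spread between libraries, part of which may be technical.

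Total counts per library ran from 14668289 to 18106651. Against the label male, transcripts of the W-linked gene HINTW stood at 111 to 158 CPM (counts-per-million, scaled to library size) in 4 libraries, number 1 and number 3 of each group. In control 2 and FOS 2 they were nearly absent, at 0.173 and 0.0697 CPM. Control 2 and FOS 2 thus did not come from the same birds as number 1 and number 3 of their group. Markers of the ileum were present: FABP6, an ileal bile acid carrier, ran from 4529 to 5756 CPM in control, against 1079 to 4003 CPM in FOS, and SLC10A2, the apical bile acid transporter, at 129 to 311 CPM over all 6 libraries. Genes that mark liver or pancreas, organs that also secrete lipoproteins or lipases, were measured too. Of 15 hepatocyte names 13 were found, and they summed to 175 to 256 CPM in control and 220 to 251 CPM in FOS. F2 (71.1 to 137 CPM), TF (45.3 to 92.3 CPM) and VTN made up most of that sum. VTN, which encodes vitronectin, lay at 29.7, 29.1 and 20.7 CPM across control 1 to 3, against 60.2, 59 and 57.7 CPM across FOS 1 to 3. DESeq2 called VTN higher (adjusted p = 8.46e-07), but it did not pass edgeR (adjusted p = 0.263). TF went the other way, at 92.3, 74.5 and 74.9 CPM across control 1 to 3, against 53.8, 74.6 and 45.3 CPM across FOS 1 to 3 (edgeR adjusted p = 0.521). Of 9 hepatocyte genes tested, 6 had a positive and 3 a negative log2 fold change. The hepatocyte genes ALB and AHSG stood at 0.32 to 1.08 CPM and at 0 CPM in all 6 libraries (up to 0.209 CPM allowed by 0 counts in FOS 2), and 11 exocrine pancreas genes summed to 0.24 to 1.18 CPM.

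Among the 6 genes, levels per transcript length (FPKM, fragments per kilobase of transcript, scaled to library size) spanned a wide range. In control ileum APOA1 stood highest, at 806 ± 348 FPKM (SD, n = 3). MTTP followed at 153 ± 21.6 FPKM and SAR1B at 94.9 ± 0.652 FPKM (SD, n = 3). APOB stood at 49.8 ± 23.8 FPKM and APOA4 at 41.2 ± 0.523 FPKM (SD, n = 3), and these neighbours did not differ beyond the spread of APOB, whose libraries lay on both sides of the APOA4 level. APOC3 was near 0, at 0.0967 ± 0.0839 FPKM (SD, n = 3).

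In FOS ileum APOA1 again stood highest, at 2097 ± 465 FPKM (SD, n = 3). APOA4 came next by its mean, 178 ± 187 FPKM, before MTTP at 157 ± 67.1 FPKM, SAR1B at 103 ± 19.5 FPKM and APOB at 63.6 ± 16.7 FPKM (SD, n = 3). The APOA4 libraries ran from 47.2 to 392 FPKM and so overlapped all of MTTP, SAR1B and APOB. APOC3 stood at 0.47 ± 0.567 FPKM (SD, n = 3).

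**Figure D1:**
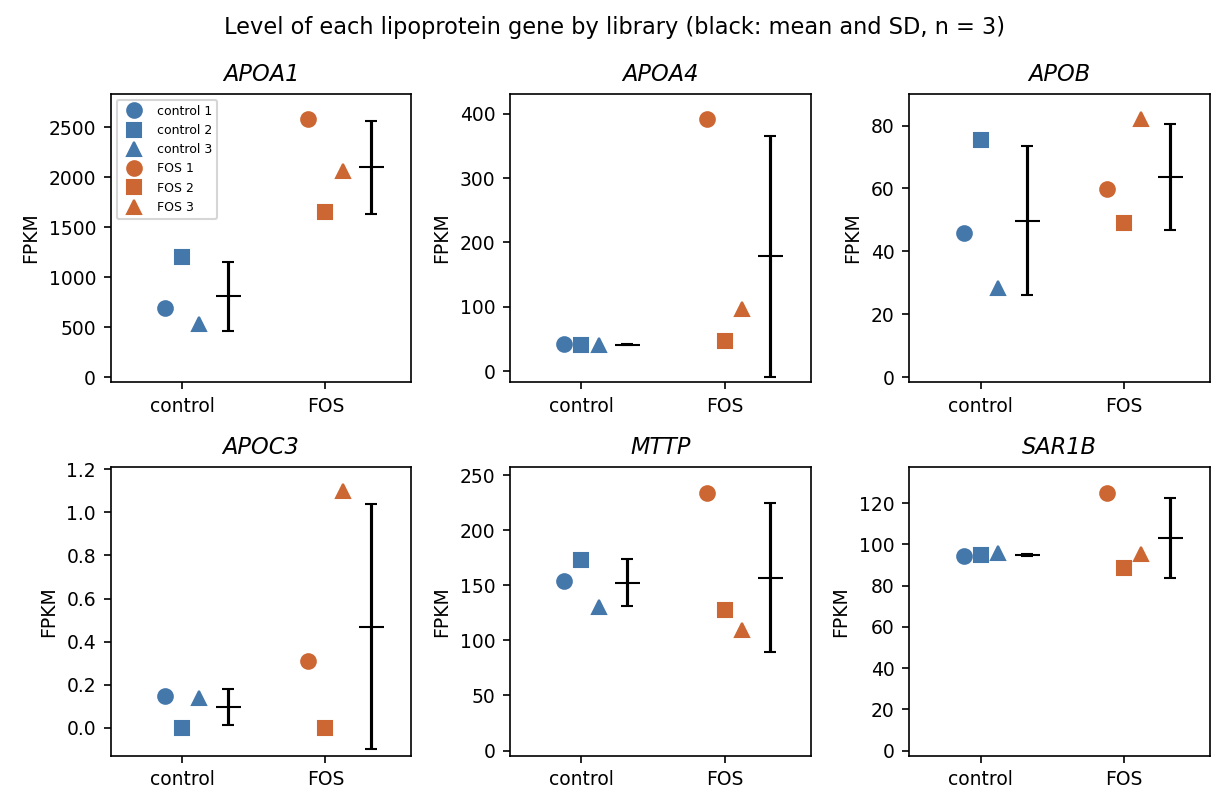
FPKM of each of the 6 genes in every library, with the control libraries on the left of each panel, the FOS libraries on the right, and the mean and SD of 3 libraries in black. APOA1 lay higher in all 3 FOS libraries than in all 3 control libraries, while APOA4 was set apart mainly by FOS 1 at 392 FPKM.

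APOA1 (ENSGALG00000007114), which encodes the main protein of high-density lipoprotein, was higher in every FOS library than in any control library. It stood at 824, 1483 and 635 CPM across control 1 to 3, against 3373, 2091 and 2552 CPM across FOS 1 to 3. Among all rows of the table ranked by FPKM, APOA1 held ranks 96, 35 and 122 in control 1 to 3 and ranks 14, 28 and 18 in FOS 1 to 3. It took 0.0658% to 0.148% of all counts in the control libraries and 0.205% to 0.319% in the FOS libraries. The fitted log2 fold change was 1.45 (SE 0.34), with an edgeR quasi-likelihood p of 0.00339 and an adjusted p of 0.434 over all genes. Of the 13807 genes tested, 85, APOA1 among them, had a log2 fold change at least as high.

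APOA1 differed less between control 2 and FOS 2, the only library of each group without W-linked transcripts, than between the other same-numbered libraries. Number 2 and the absence of W-linked transcripts cannot be told apart here. APOA1 in FOS 2 was 1.41 times control 2, whereas FOS 1 was 4.09 times control 1 and FOS 3 was 4.02 times control 3. Whether these ratios differ was not tested. Restricted to the 4 libraries with W-linked transcripts, the log2 fold change was 2.02 (SE 0.26, edgeR adjusted p = 0.373). DESeq2 called APOA1 higher over all genes (log2 fold change 1.45, adjusted p = 0.00217). With the replicate number as a block, DESeq2 no longer called it (log2 fold change 1.52, adjusted p = 0.371). The same block in edgeR gave 1.52 (SE 0.35, edgeR adjusted p = 0.469).

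APOA4 (ENSGALG00000007109) encodes an apolipoprotein that mammals make largely in the intestine and release after a fatty meal. It was nearly constant in control, at 48, 48.5 and 47.7 CPM in control 1 to 3, and ranged widely in FOS, at 494, 57.6 and 114 CPM in FOS 1 to 3. All FOS libraries lay above all control libraries, although FOS 2 was only 1.19 times control 2 and FOS 1 was 10.3 times control 1. The highest FOS library was 8.58 times the lowest, against 1.02 times among control libraries. The log2 fold change was 2.21 (SE 0.72, edgeR adjusted p = 0.479), and without FOS 1 it was 0.84 (SE 0.27, edgeR adjusted p = 0.453). It was 2.66 (SE 0.66, edgeR adjusted p = 0.541) in the 4 libraries with W-linked transcripts.

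In the chicken assembly GRCg7b of RefSeq, APOA4, APOC3 and APOA1 are consecutive protein-coding genes, in that order, with APOA5 before them and SIK3 after them. The counts of the neighbours were far apart. APOC3 (ENSGALG00000030920), whose product slows the clearance of triglyceride-rich particles in mammals, had 1, 0 and 1 counts across control 1 to 3, against 2, 0 and 8 counts across FOS 1 to 3. With 2 counts in all control libraries and 10 in all FOS libraries, 8 of them in FOS 3, FOS libraries held 5.61 times the control level (95% exact binomial interval 1.2 to 52.7, counting error only). Without a filter on low counts its edgeR adjusted p was 0.703, so no difference in APOC3 passed over all genes. The interval leaves out the spread between libraries, such as 2, 0 and 8 counts in FOS. APOA5 was not analysed here.

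APOB (ENSGALG00000016491), the structural protein of the particle, varied as much within groups as between them. It stood at 625, 1065 and 385 CPM across control 1 to 3, against 892, 711 and 1158 CPM across FOS 1 to 3. The groups overlapped: FOS 1 and FOS 2 lay within the control range and FOS 3 above it. The log2 fold change was 0.41 (SE 0.36, edgeR adjusted p = 0.762). It was 0.12 without control 3, 0.87 without control 2 and 0.22 without FOS 3. In the 4 libraries with W-linked transcripts it was 1.02 (SE 0.29, edgeR adjusted p = 0.553).

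MTTP (ENSGALG00000035619) stood at 438, 511 and 371 CPM across control 1 to 3, against 727, 384 and 322 CPM across FOS 1 to 3. FOS 1 lay above the control range and FOS 3 lay below it, so the FOS libraries did not move together. The log2 fold change was 0.12 (SE 0.30, edgeR adjusted p = 0.928), and without FOS 1 it changed sign, to -0.31 (SE 0.17, edgeR adjusted p = 0.579). In the 4 libraries with W-linked transcripts it was 0.37 (SE 0.38, edgeR adjusted p = 0.827). MTTP works as a pair with protein disulfide isomerase, encoded by P4HB. P4HB stood at 936, 944 and 977 CPM across control 1 to 3, against 1469, 958 and 959 CPM across FOS 1 to 3, and FOS 1 was likewise its highest library.

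SAR1B (ENSGALG00000038753) was the steadiest of the 5 genes tested. It stood at 123, 129 and 126 CPM across control 1 to 3, against 180, 123 and 130 CPM across FOS 1 to 3. FOS 1 was the highest library, while FOS 2 and FOS 3 were close to the control range. The log2 fold change was 0.19 (SE 0.16, edgeR adjusted p = 0.745), 0.01 (SE 0.09) without FOS 1 and 0.31 (SE 0.19) in the 4 libraries with W-linked transcripts. Its close relative SAR1A, which takes part in the same coat, differed by 0.12 on the log2 scale (SE 0.11, edgeR adjusted p = 0.779).

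All 5 genes tested had a positive log2 fold change, as had 51.1% of all genes tested, with a median of 0.41 against 0.01 over all genes. At an edgeR adjusted p under 0.05, 0 of the 5 passed, where 0.0217% of all genes passed as higher and 0% as lower. At an unadjusted p under 0.05, 2 of the 5 were higher, APOA1 and APOA4, against 5.14% of all genes. The same 2 had all FOS libraries above all control libraries, against 8.58% of all genes. DESeq2 called 1 of the 5, APOA1, against 0.777% of all genes called higher, and with the replicate number as a block it called 0 of the 5, against 0.63% of all genes called higher. Both limma-voom and limma on log2(FPKM + 1) called 0. Since the genes were chosen with earlier results of these data known, these shares describe them and are not a test of the set.

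**Figure D2:**
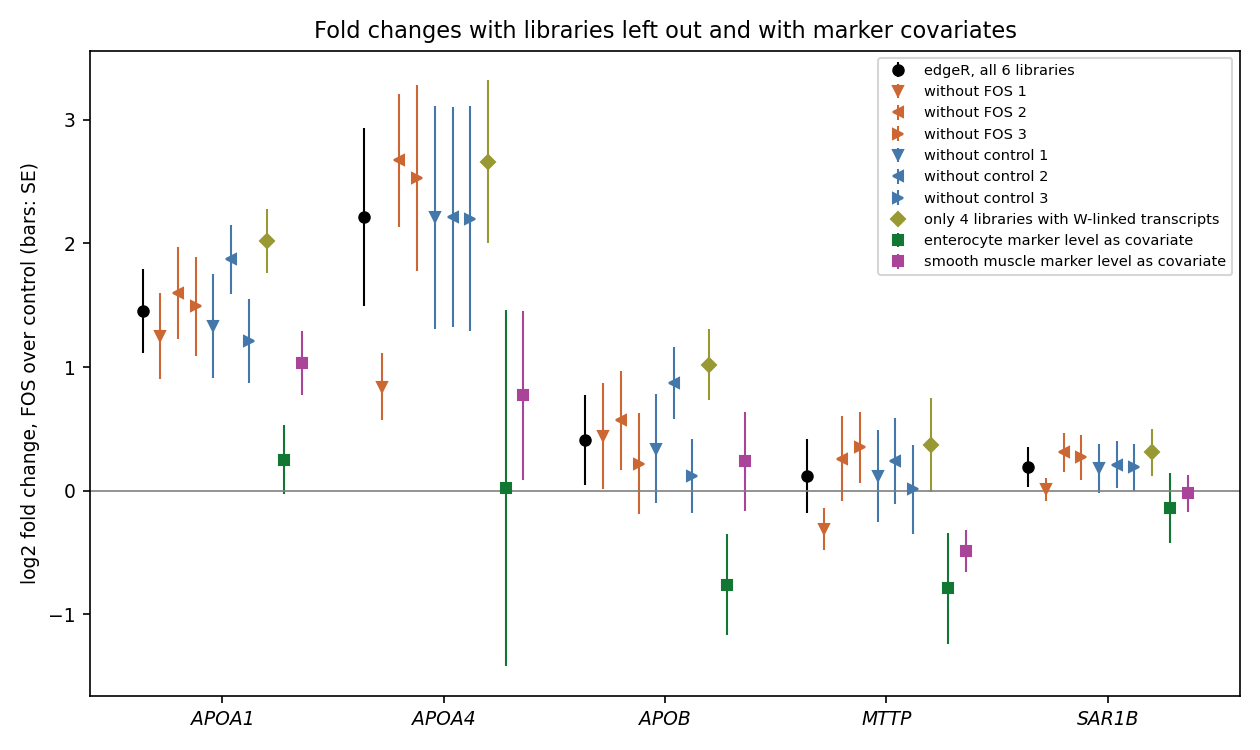
Log2 fold change of FOS over control with its SE for the 5 genes tested, with all 6 libraries (black), with each library left out, with the 4 libraries that held W-linked transcripts, and with a marker level as covariate. APOA4 went from 2.21 to 0.84 without FOS 1, and APOA1 went from 1.45 to 0.25 with the enterocyte marker level as covariate.

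Enterocyte markers, summed, lay higher in all FOS libraries than in all control libraries, although 0 passed edgeR. Of 20 listed, 16 were found and tested, 15 of them with a positive log2 fold change (median 0.37), and edgeR passed 0 over all genes. At an unadjusted edgeR p under 0.05, 4 were higher, against 5.14% of all genes. DESeq2 called 0 of the 16. With the replicate number as a block it called 3, against 0.63% of all genes called higher. They were SI, ALPI and LCT, all higher (DESeq2 adjusted p = 0.00908, 3.39e-05 and 0.000104). With the same block edgeR passed none of these genes (edgeR adjusted p = 0.484, 0.326 and 0.469). The summed level of the 16 markers was 15569 to 20591 CPM in control and 22841 to 27860 CPM in FOS, with no overlap. ANPEP held the largest part of that sum, at 6232 to 8626 CPM in control and 8468 to 11734 CPM in FOS. Without ANPEP the summed level overlapped between groups, with FOS 2 below control 2. The mean log2 CPM of the markers, which weighs each marker equally, was 8.55 to 9.01 in control and 9.16 to 9.50 in FOS. The groups came closest in control 2 (9.01) and FOS 2 (9.16). LCT and KRT19, the least abundant markers, stood at 10.2 and 3.7 CPM in control 2, against 31.1 and 7.53 CPM in FOS 2. EPCAM, CDH17, FABP2, DPP4, CDHR2, EZR and SLC15A1 were lower in FOS 2 than in control 2, and the other markers were higher. The mean without LCT and KRT19 was not computed. Of the 16 markers, 4 had all FOS libraries above all control libraries, against 8.58% of all genes. SLC15A1 alone had a negative log2 fold change (-0.51). VIL1 and CDH17, structural markers of these cells, ran from 767 to 859 and from 797 to 1031 CPM in control, against 788 to 1432 and 966 to 1519 CPM in FOS. None of the 16 was at 0. In whole tissue, the number of enterocytes and the RNA per enterocyte cannot be told apart, and whether either differed between groups was not tested.

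With the mean log2 CPM of these markers as a covariate, the log2 fold change was 0.25 (SE 0.28) for APOA1, 0.02 (SE 1.44) for APOA4, -0.76 (SE 0.41) for APOB, -0.79 (SE 0.45) for MTTP and -0.14 (SE 0.28) for SAR1B, all with an edgeR adjusted p of at least 0.991. The marker level itself did not overlap between groups, and this fit called 0 genes in all. Expressed relative to the marker mean of the same library, APOA1 stood at 0.85, 1.52 and 0.76 log2 units across control 1 to 3, against 2.22, 1.87 and 1.99 across FOS 1 to 3, a mean difference of 0.98 without overlap. On the same scale SAR1B was lower in every FOS library (mean difference -0.35), with FOS 1 barely below control 2. APOB differed by -0.02, MTTP by -0.49 and APOA4 by 1.09, each with overlapping groups. The marker mean was itself higher in every FOS library, so subtracting it lowers any gene that stays level between groups. Before this step SAR1B had a log2 fold change of 0.19, so its lower relative level does not show a fall. The share of all genes without overlap on this scale was not computed, for SAR1B or for APOA1.

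Smooth muscle markers of the intestinal wall were lowest in FOS 1. All 14 smooth muscle markers tested had a negative log2 fold change (median -0.37), with 0 passing edgeR over all genes. Their summed level was 7425 to 10424 CPM in control, 5491 CPM in FOS 1, 7758 CPM in FOS 2 and 8722 CPM in FOS 3. Other cell types outside the epithelium were also lowest by sum in FOS 1. Fibroblast and matrix markers summed to 4346 CPM there against 5798 to 6983 CPM in the other libraries, endothelial markers to 346 against 501 to 592 CPM, and leukocyte markers to 2120 against 2313 to 3383 CPM. Of 14 leukocyte markers 12 had a negative log2 fold change (median -0.26), with 0 passing edgeR. DESeq2 called 2 of them lower, PTPRC and CD3D (adjusted p = 0.018 and 0.0441), against 0.325% of all genes. With the replicate number as a block DESeq2 called 0 (adjusted p = 0.258 and 0.209). FOS 1 was the library with the lowest muscle level and with the highest APOA1, APOA4, MTTP and SAR1B. With the smooth muscle marker level as a covariate the log2 fold change was 1.03 (SE 0.26) for APOA1, 0.77 (SE 0.68) for APOA4, 0.24 (SE 0.40) for APOB, -0.49 (SE 0.17) for MTTP and -0.02 (SE 0.15) for SAR1B, with edgeR adjusted p from 0.864 to 0.987.

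Markers that are known to be higher in proximal than in distal small intestine were measured as well, since lipoprotein genes are used most in the proximal part. Of 9 such markers 8 had a positive log2 fold change (median 0.61), and 0 passed edgeR over all genes. Their summed level was 1172 to 1451 CPM in control and 1597 to 2096 CPM in FOS. Among them TMPRSS15, the enteropeptidase, stood at 0.721, 1.16 and 3.2 CPM across control 1 to 3, against 0.54, 11.1 and 100 CPM across FOS 1 to 3. RBP2, a retinol carrier of enterocytes, stood at 94.2, 36.4 and 124 CPM across control 1 to 3, against 416, 142 and 219 CPM across FOS 1 to 3. DESeq2 called RBP2 higher with the replicate number as a block (adjusted p = 4.12e-07) and not without it (adjusted p = 0.268). It did not pass edgeR with the same block (edgeR adjusted p = 0.326). FOS 1 was the highest library of RBP2, GATA4, FABP1, SLC46A1 and GIP, as it was of APOA4, and FOS 3 was the highest of TMPRSS15 and CYBRD1. GATA4 stood at 6.13, 0.289 and 0.267 CPM across control 1 to 3, against 26.1, 0.557 and 17.2 CPM across FOS 1 to 3. Its log2 fold change was 2.73 (SE 1.43, edgeR adjusted p = 0.614). CCK and ADA were highest in control libraries, at 84.6 CPM in control 2 and 572 CPM in control 1. Of the 9 distal markers 8 also had a positive log2 fold change (median 0.24), AMN (0.70), PYY (0.64) and CUBN (1.30) among them, and 0 passed edgeR. FABP6 alone was negative (-1.23, DESeq2 adjusted p = 0.47, and 0.000145 with the replicate number as a block, against an edgeR adjusted p of 0.472 with that block). It held most of the counts of the list, whose sum was 5121 to 6321 CPM in control and 1746 to 4902 CPM in FOS. Their part in the result was not tested.

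**Figure D3:**
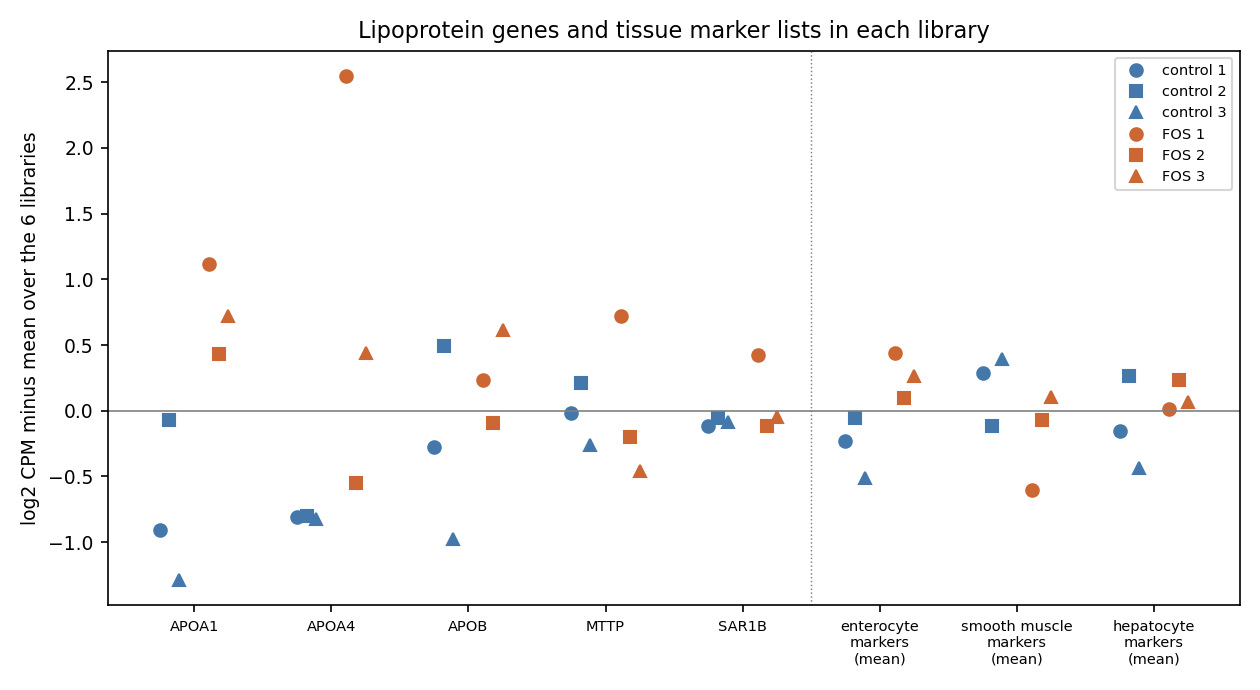
Log2 CPM of the 5 genes tested and mean log2 CPM of 3 marker lists in each library, each centred on its own mean over the 6 libraries. The enterocyte marker mean was higher in all FOS libraries, although only 4 of the 16 markers were so taken singly. The smooth muscle marker mean was lowest in FOS 1, and the hepatocyte marker mean overlapped between groups.

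Ratios of FPKM within a library do not depend on the scaling of library size. The ratio of APOA1 to APOB was 15.1, 15.9 and 18.8 across control 1 to 3, against 43.2, 33.6 and 25.2 across FOS 1 to 3, so all FOS libraries held more APOA1 per APOB transcript. The ratio of APOA1 to MTTP was 4.48, 6.9 and 4.08 across control 1 to 3, against 11, 12.9 and 18.9 across FOS 1 to 3. Of the 10 pairs among the 5 genes, 5 had ratios that did not overlap between groups, against 15% of all pairs of tested genes. The pairs share genes and are not independent of each other. All 5 had APOA1 or APOA4 as numerator and APOB, MTTP or SAR1B as denominator, in the fixed order in which pairs were formed. APOA1 and APOA4 were also the genes with all FOS libraries above all control libraries, so these ratios are not separate support. The ratio of APOA4 to SAR1B was 0.442, 0.429 and 0.433 across control 1 to 3, against 3.13, 0.533 and 1.01 across FOS 1 to 3. The ratio of APOB to MTTP overlapped, at 0.216 to 0.434 in control and 0.256 to 0.75 in FOS.

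**Figure D4:**
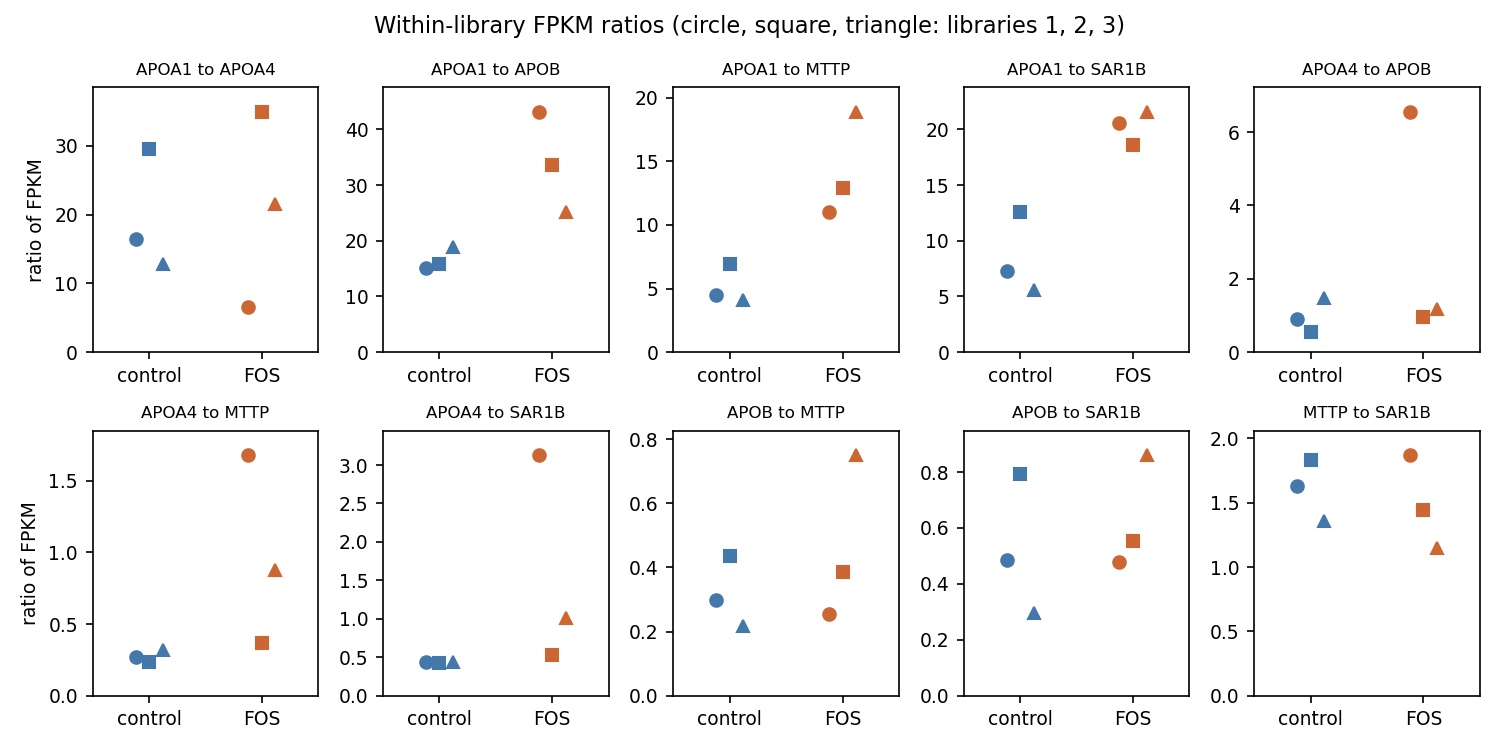
Ratio of FPKM within each library for the 10 pairs of the 5 genes tested, with control libraries in blue and FOS libraries in orange. The APOA1 to APOB ratio was 15.1 to 18.8 in control and 25.2 to 43.2 in FOS, while pairs among APOB, MTTP and SAR1B overlapped.

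The genes whose log2 CPM over the 6 libraries followed each lipoprotein gene most closely differed from gene to gene. Likeness was the root mean square difference after centring each gene. It was taken among the genes with a symbol out of 13164 with a mean of at least 1 CPM. How close the best match among so many genes would be over 6 libraries was not tested. For APOA1, itself with a root mean square deviation of 0.861 log2 units, the closest were HYDIN (0.252), CYP2C23a (0.29) and TM4SF4 (0.356). HYDIN was low, at 1.56 to 2.37 CPM in control and 4.39 to 6.41 CPM in FOS. CYP2C23a, a cytochrome P450, stood at 264, 897 and 320 CPM across control 1 to 3, against 1489, 1067 and 1031 CPM across FOS 1 to 3. For APOA4, with a deviation of 1.22, the closest were CASP14 (0.378), the disaccharidase gene SI (0.472) and MUC5AC (0.503). CASP14 was also low, at 0.8 to 1.16 CPM in control and 1.74 to 6.82 CPM in FOS. SI stood at 1398, 1189 and 1037 CPM across control 1 to 3, against 5216, 1465 and 2287 CPM across FOS 1 to 3, with FOS 1 highest as in APOA4.

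For APOB, with a deviation of 0.534, the closest genes were PLEKHS1 (0.109), LAMB3 (0.129) and TMEM171 (0.133). For MTTP, with a deviation of 0.382, they were HAUS8 (0.0849), the bile acid transporter gene SLC10A2 (0.0948) and FAM81A (0.101). SLC10A2 stood at 168, 201 and 173 CPM across control 1 to 3, against 311, 165 and 129 CPM across FOS 1 to 3. For SAR1B, with a deviation of 0.192, they were SEC61A1 (0.0239), TMEM69 (0.0299) and LRRC75A (0.031). SEC61A1, a subunit of the channel through which secreted proteins enter the endoplasmic reticulum, stood at 161, 163 and 167 CPM across control 1 to 3, against 229, 158 and 164 CPM across FOS 1 to 3. Among the 5 genes themselves the closest pair was MTTP with SAR1B (0.248) and the most distant was APOA4 with APOB (1.12). The distance of MTTP to SAR1B was larger than the deviation of SAR1B itself (0.192), so being closest does not show a shared pattern.

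Other genes of the pathway were taken from 4 lists with 111 names, of which 92 were found and 84 were tested. With edgeR 0 of the 84 passed over all genes, while 13 were higher and 6 lower at an unadjusted p under 0.05 (5.14% and 4.27% of all genes). DESeq2 called 5 higher and 2 lower (0.777% and 0.325% of all genes). With the replicate number as a block it called 2 higher and 2 lower (0.63% and 0.203% of all genes), all 4 among the former 7, and no longer SORT1, GATA6 and SREBF2. With the same block edgeR passed 0 of the 84. The median log2 fold change of the 84 was 0.08, against 0.01 over all genes.

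Partners of assembly and secretion had a median log2 fold change of 0.10, with 21 of 31 positive and 0 passing edgeR. TM6SF2, a membrane protein that aids the lipidation of apolipoprotein B particles, stood at 24.8, 21.3 and 15.8 CPM across control 1 to 3, against 50.6, 36 and 30.4 CPM across FOS 1 to 3, without overlap (log2 fold change 0.92, SE 0.24, edgeR adjusted p = 0.434, DESeq2 adjusted p = 0.0462). PREB, the exchange factor that loads SAR1 proteins with GTP, averaged 40.1 ± 1.53 CPM in control against 50.5 ± 3.69 CPM in FOS (SD, n = 3, edgeR adjusted p = 0.479). TMED10, a cargo receptor of the early secretory pathway, stood at 382 ± 61.7 and 281 ± 15.5 CPM (SD, n = 3, edgeR adjusted p = 0.479). The groups did not overlap in 8 genes with higher and 1 with lower FOS libraries, against 8.58% and 7.84% of all genes.

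Of 7 other apolipoprotein names found, 4 were tested and 0 passed edgeR, with a median log2 fold change of 0.14. The 3 with the smallest p were PON2, a paraoxonase, at 4.83 ± 2.65 CPM in control against 8.86 ± 2.54 CPM in FOS, and the mitochondrial proteins APOO, at 33.2 ± 6.84 and 38.2 ± 4.9 CPM, and APOOL, at 42.7 ± 3.2 and 40.7 ± 3.25 CPM (SD, n = 3). APOV1, the very-low-density lipoprotein protein that the liver of laying hens makes, was at 0 CPM in 5 libraries and at 0.0675 CPM (1 count) in FOS 1.

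Genes of lipoprotein uptake and remodelling had a median log2 fold change of -0.16, with 7 of 20 positive and 0 passing edgeR. SCARB1, the receptor for high-density lipoprotein, stood at 16.2, 13.9 and 17.9 CPM across control 1 to 3, against 26.1, 27.5 and 35.9 CPM across FOS 1 to 3 (log2 fold change 0.90, SE 0.17, edgeR adjusted p = 0.408, DESeq2 adjusted p = 0.00405). SORT1, a sorting receptor that binds apolipoprotein B, stood at 164, 173 and 159 CPM across control 1 to 3, against 227, 221 and 239 CPM across FOS 1 to 3 (log2 fold change 0.47, SE 0.10, edgeR adjusted p = 0.414, DESeq2 adjusted p = 0.0035, and 0.18 with the replicate number as a block). ABCG1, which exports cholesterol to high-density lipoprotein, stood at 10.4, 9.02 and 11.5 CPM across control 1 to 3, against 6.28, 5.99 and 6.68 CPM across FOS 1 to 3 (log2 fold change -0.70, SE 0.19, edgeR adjusted p = 0.441, DESeq2 adjusted p = 0.0897). Groups of these 3 genes, named for the smallest p of the list, did not overlap. Of the 20 tested, 3 lay all above and 3 all below control in FOS, against 8.58% and 7.84% of all genes.

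Transcription regulators with known sites in apolipoprotein genes of mammals had a median log2 fold change of 0.22, with 22 of 30 positive and 0 passing edgeR. NR1D2 and NR1D1, repressors of the circadian clock that bind apolipoprotein promoters in mammals, averaged 116 ± 16.9 and 9.21 ± 1.42 CPM in control, against 52 ± 8.43 and 3.91 ± 1.25 CPM in FOS (SD, n = 3, edgeR adjusted p = 0.263 and 0.434, DESeq2 adjusted p = 2.55e-06 and 0.0182). GATA6, an epithelial transcription factor, stood at 39.5, 43.6 and 46.6 CPM across control 1 to 3, against 64.9, 58.5 and 60.2 CPM across FOS 1 to 3 (edgeR adjusted p = 0.414, DESeq2 adjusted p = 0.0317, and 0.293 with the replicate number as a block). HNF4A, a nuclear receptor that drives apolipoprotein genes in liver and intestine, stood at 76.7, 88.3 and 65.4 CPM across control 1 to 3, against 76.7, 125 and 106 CPM across FOS 1 to 3, with overlapping groups (edgeR adjusted p = 0.566). It was named for its role after its values were seen.

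**Figure D5:**
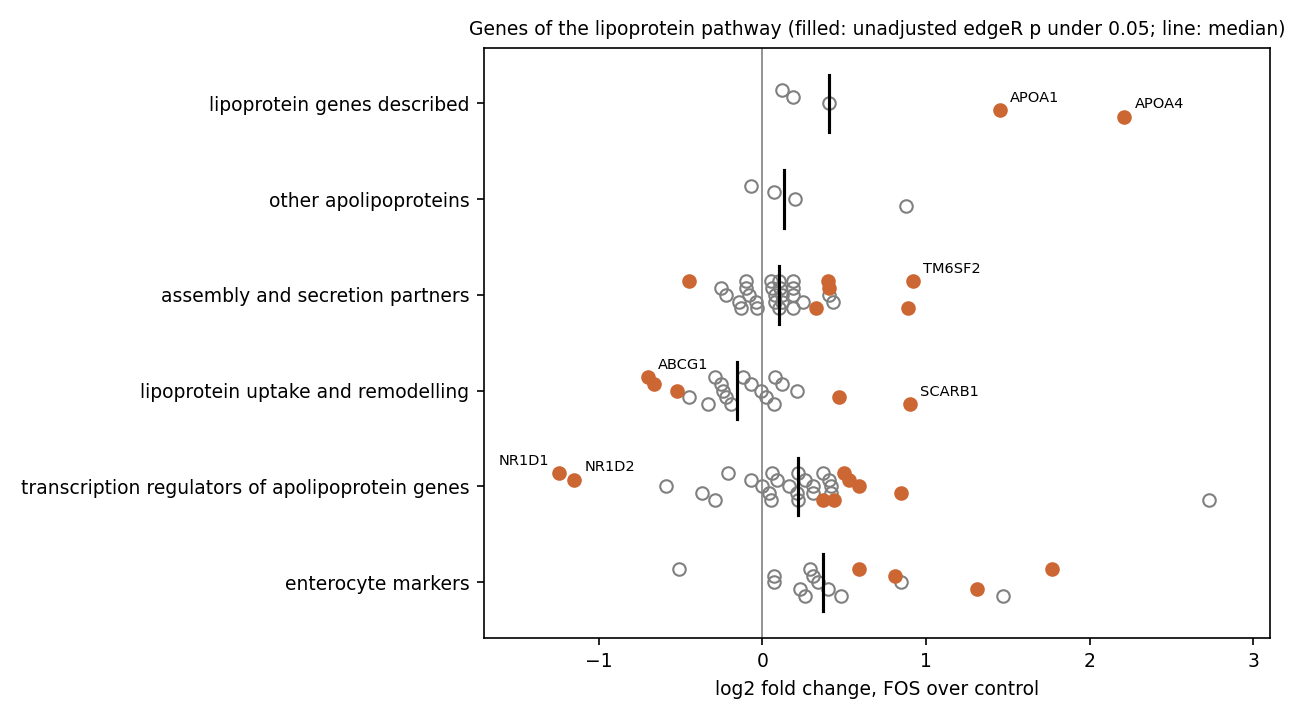
Log2 fold change of FOS over control for each tested gene of the lipoprotein lists and of the enterocyte markers, with filled points at an unadjusted edgeR p under 0.05 and a line at the median of each list. APOA1 and APOA4 lie at 1.45 and 2.21, while the medians of the 4 other lipoprotein lists run from -0.16 to 0.22.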

How the data were processed

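Gene-level values of 6 ileum libraries were used, grouped by sample title. The authors deposited 1 table with expected counts and FPKM per gene and library. Per the labels' protocols, RNA was extracted with TRIzol and the named library kit is one for small RNA. Per the submitters' processing notes, fastp 0.18.0, Bowtie2, HISAT2, StringTie 1.3.1 and DESeq2 were used, with no roles given. The genome build and how reads were counted were not given in the sources used here. Reads shared by related genes may thus be split in an unknown way. A further 12 value columns, of 6 libraries that are not described, were not used.

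Counts, of which 8.06% were not whole (tolerance 1e-09), were rounded. Genes were kept by filterByExpr (13807), normalised by TMM, and entered the edgeR 4.0.16 quasi-likelihood test (R 4.3.3), with Benjamini-Hochberg adjustment over all genes. Calls required an adjusted p under 0.05. Each SE was obtained as log2 fold change over the square root of F. DESeq2 1.42.0 and limma 3.58.1 were alternatives, on the same genes. The test was checked on simulated counts. FPKM were used between genes, TMM-scaled CPM (prior count 2 on the log2 scale) between libraries. Names missing in the table came from RefSeq (GRCg7b) through NCBI gene IDs for 1140 rows. Where a listed name had several rows, the row with most counts was used.

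Genes named were the 6 described, the 3 with the smallest p of each pathway list, the 3 closest in pattern to each, and fixed markers; P4HB, SAR1A, APOV1, HNF4A, SREBF2 and all other markers named were added after their values were seen. The genes and lists were chosen with earlier results of these data known. Deviations of same-numbered libraries correlated at 0.24, 0.388 and 0.198, all over 0.1. The number from the titles was used as a block in alternative fits only, and the main fits were unpaired. This correlation was not computed for libraries with different numbers, and no label says what a number marks. Planned promoter motif searches were not made, since no sequences were used here. Intervals cover counting error only.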

Additional observations from a re-analysis of the deposited data

How the results depend on the processing

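Over 22 alternatives each, the log2 fold change of APOA1 stayed positive (0.25 to 2.02), as did that of APOA4 (0.02 to 2.67), both lowest with the enterocyte marker level as covariate. APOA1 passed the threshold with DESeq2 alone, and APOA4, APOB, MTTP and SAR1B passed in 0 of 21 tests each. Signs turned as follows. APOB gave -0.76 with the enterocyte covariate and -0.02 relative to the enterocyte marker mean, a measure added after the data were examined. MTTP gave -0.03 with limma on FPKM at a pseudocount of 1 or 0.1, -0.79 and -0.49 with the enterocyte and smooth muscle covariates, -0.49 relative to the marker mean, and -0.31 to 0.35 with 1 library left out, lowest without FOS 1. SAR1B gave -0.14 and -0.02 with these covariates and -0.35 relative to the marker mean. The cause of these changes of sign was not tested.

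The number of genes called was 3 with edgeR, 149 with DESeq2, 1 with limma-voom, 0 with the enterocyte covariate, and 0 to 4 with 1 library left out (0 without control 1 or control 3, and 1 without control 2). The replicate block gave 3 genes in edgeR and 115 in DESeq2. Of the 6 genes, 0 were called with edgeR, 1 with DESeq2 and 0 with DESeq2 and the block, which changed no other call among these 6. DESeq2 calls of listed pathway genes and markers that changed with the block are given above, except for the enteroendocrine marker CHGA. It was called higher with the block (DESeq2 adjusted p = 0.00459) and not without it (adjusted p = 0.0686), and did not pass edgeR with the block (edgeR adjusted p = 0.435). The common biological coefficient of variation was 24.6%, and the SE of APOB, MTTP and SAR1B were 0.36, 0.30 and 0.16, so a missed threshold does not show that they did not differ. The values of APOC3 rest on only 0 to 8 counts per library.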
